A study of Caenorhabditis elegans with 6 samples.

Results

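The DREAM complex (also called DRM in worms) is a set of proteins that sits on the promoters of cell cycle and developmental genes and holds them down. Its pocket protein, the worm relative of the retinoblastoma protein Rb, joins an E2F–DP pair of DNA-binding factors to a second module, MuvB, which also touches DNA. In Caenorhabditis elegans most of these genes were found as synMuv B genes, which restrain vulval fate redundantly with other pathways, and they also keep germline genes off in somatic cells. Earlier work on enhanced RNA interference linked loss of the mir-35 to mir-41 microRNAs to lin-35, so one question the comparison addresses is whether the transcripts of lin-35 and of the genes that act with it differ between embryos with and without these microRNAs.

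9 of the 17380 genes named in the table were chosen by symbol: lin-35, efl-1, dpl-1, lin-9, lin-37, lin-52, lin-53, lin-54 and lin-13. Every probe set of each was used, which gave 17 of the 22548 probe sets tested. 7 genes had more than 1 probe set and 2, dpl-1 and lin-54, had 1. Of the 17 probe sets 10 have the suffix s_at and 3, those of lin-9, the suffix x_at, by which Affymetrix marks probes that may be shared between transcripts, so signal from related transcripts may add to them.

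RNA came from whole mixed-stage embryos, 3 arrays of the mir-35-41(nDf50) mutant (strain VT2935 lacking nEx1187, whose name is that of an extrachromosomal array) and 3 arrays of wild type (strain N2). The nDf50 deletion removes a cluster of microRNAs of the mir-35 family, and other members of that family are encoded elsewhere. Cultures of both groups grew on agar with chicken egg yolk and went from 20 to 25 °C 24 hours before hypochlorite treatment freed the embryos. No label says that the replicates were separate cultures, so the p-values below reflect how much these samples vary, and that variation may be technical.

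The arrays had median normalized intensities of 119, 127 and 127 in the mutant and 114, 121 and 121 in wild type. Across all probe sets, mutant replicates 2 and 3 correlated at r = 0.998 with each other and at 0.989 and 0.991 with mutant replicate 1. With the wild type arrays, mutant replicate 1 correlated at 0.986 to 0.988, and mutant replicates 2 and 3 at 0.978 to 0.983. The wild type arrays correlated at 0.989 to 0.994, and wild type replicate 1 was no closer to the other wild type arrays (0.989 and 0.991) than mutant replicate 1 was to the other mutant arrays. Results are given with and without mutant replicate 1, the only single array whose omission changed the number of member calls. It was singled out with these results known. As it was the highest mutant array on 15 of the 17 member probe sets, leaving it out lowers most of their differences. The fit without it is therefore no separate support for a fall. Without wild type replicate 1 no member passed (limma), none had an unadjusted p under 0.05, and the members' median difference was -0.22. No probe set in the table is annotated to the deleted microRNAs, so the deletion itself was not checked. All member probe sets were well above background: the lowest group mean was 8.08 on the log2 scale, against at most 5.42 for 5 yeast control probe sets with no target in worms. In bulk RNA from mixed embryos, fewer cells of a type and less RNA per cell cannot be told apart.

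None of the 17 probe sets passed the threshold over all 6 arrays (limma, adjusted p under 0.05 after Benjamini-Hochberg adjustment over all probe sets), where 3.48% of all probe sets did (2.83% higher and 0.648% lower in the mutant). Their adjusted p-values lay between 0.229 and 0.995, and 1 (the second of efl-1) had an unadjusted p under 0.05, against 19.4% of all probe sets. 16 of the 17 differences were nonetheless negative, that is lower in the mutant, as were 60.7% of all. The median difference was -0.21 on the log2 scale over the members and -0.05 over all probe sets. No member had groups that did not overlap, against 24.3% of all probe sets (13.3% with the mutant lower).

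The pattern by array was the same for most members. Mutant replicates 2 and 3 were both below all 3 wild type arrays on 11 of the 17 probe sets, as they were on 26.6% of all probe sets. Mutant replicate 1 lay within the wild type range on 13 and above it on 4, and the matching shares of all probe sets were not counted. It was the highest mutant array on 15 (40.5% of all probe sets). Without mutant replicate 1, all 17 differences were negative (59.6% of all probe sets), the median difference was -0.41 (-0.05 over all probe sets), and 6 probe sets of 4 genes (efl-1, lin-37, lin-53 and lin-54) fell, against 3.86% of all probe sets that fell and 6.8% that rose in that fit. Without both arrays numbered 1, 7 probe sets of 5 member genes fell, against 6.89% of all probe sets that fell and 15.6% that passed in either direction. With array weights 7 probe sets of 5 member genes fell, against 8.72% of all that fell and 18.6% that passed in either direction.

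**Figure D1:**
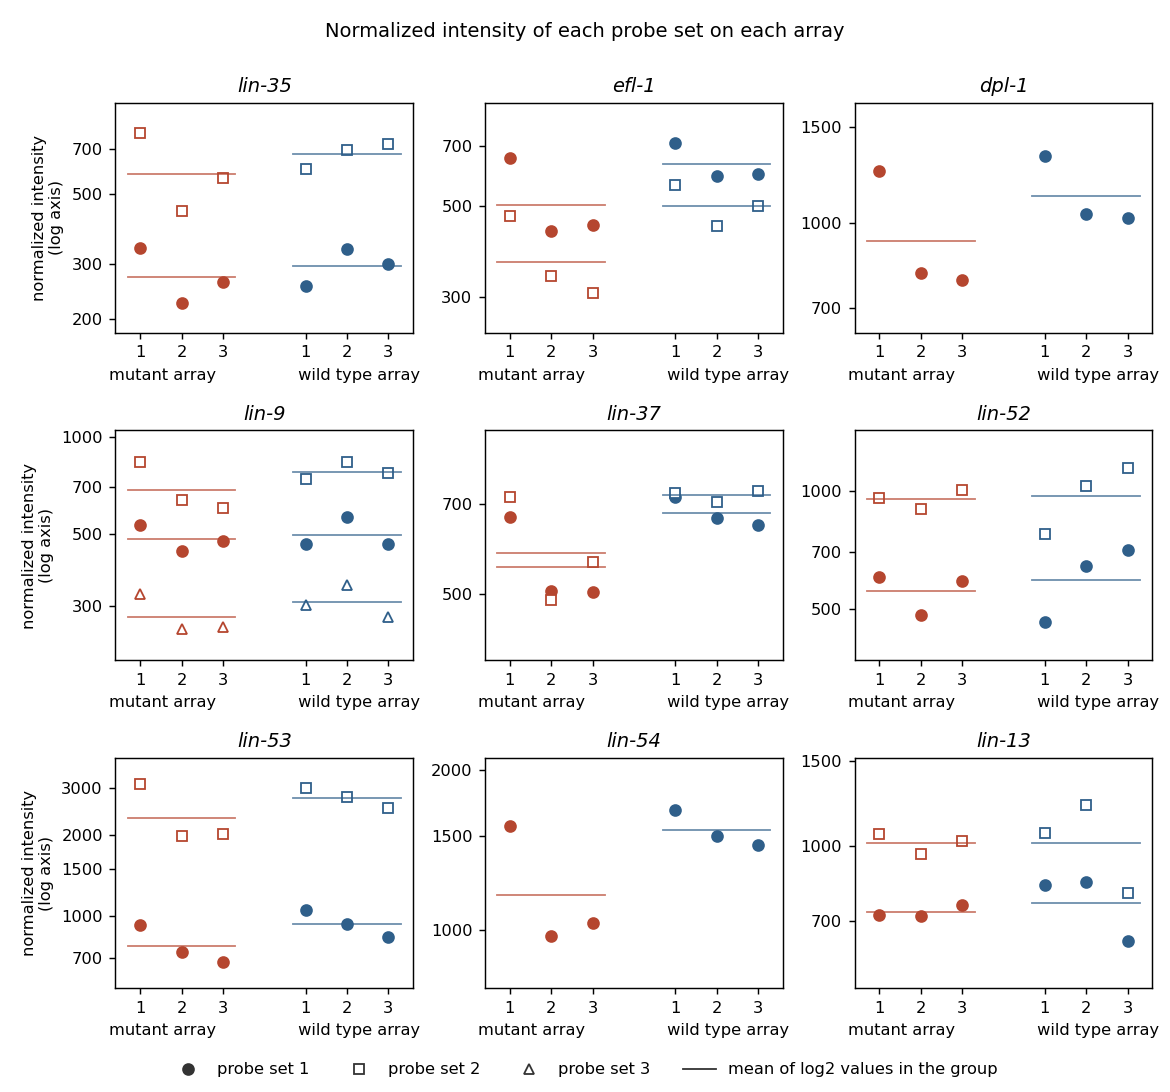
Normalized intensity (log axis) of each probe set of the 9 genes on the mutant arrays 1 to 3 (left, red) and the wild type arrays 1 to 3 (right, blue). Filled circles, open squares and open triangles are the probe sets 1, 2 and 3 of a gene and lines are the means of log2 values; mutant arrays 2 and 3 lie below all wild type arrays on every probe set of efl-1, dpl-1, lin-37, lin-53 and lin-54, while mutant array 1 does not.

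The gene lin-35 encodes the only Rb-like pocket protein of the worm, which recruits repressive activity to its E2F partners. Its first probe set gave normalized intensities of 338, 225 and 262 on mutant arrays 1, 2 and 3, against 255, 334 and 298 on the wild type arrays. Its second gave 786, 443 and 563 in the mutant, against 603, 693 and 727 in wild type. Mutant array 1 was the highest of all 6 on both probe sets and mutant array 2 the lowest, so the wild type values lay inside the mutant range. The log2 differences were -0.12 (95% interval -0.53 to 0.29) and -0.21 (-0.70 to 0.28), with limma adjusted p-values of 0.768 and 0.637 (n = 3 against 3). These intervals leave room for a rise of up to 1.23-fold or 1.22-fold and for a fall of up to 1.44-fold or 1.63-fold. Without mutant replicate 1 the differences were -0.28 and -0.43, neither past the threshold (limma adjusted p = 0.291 and 0.119).

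The E2F–DP pair consists of EFL-1, an E2F-like factor, and DPL-1, its DP partner. The second probe set of efl-1 had the largest difference of the 17, while by the mean over a gene's probe sets lin-54 (-0.40) came before efl-1 (-0.39). Its first probe set read 655, 436 and 451 in the mutant, against 716, 594 and 599.5 in wild type. Its second read 473, 339 and 307 in the mutant, against 563, 448 and 500.1 in wild type. On both, mutant arrays 2 and 3 were below every wild type array and mutant array 1 was between them. The differences were -0.33 (SE 0.17) and -0.45 (SE 0.18) on the log2 scale, and the interval of the second, -0.87 to -0.03, not adjusted for the number of probe sets, was the only 1 among the 17 that left out 0 (limma adjusted p = 0.229). Without mutant replicate 1 both fell, by 0.52 and 0.64 on the log2 scale, or 1.43-fold and 1.56-fold lower (limma adjusted p = 0.0425 and 0.0293).

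The single probe set of dpl-1 had 1249.6, 811 and 789 in the mutant, against 1329, 1041 and 1024 in wild type. Mutant arrays 2 and 3 were again below all wild type arrays, and mutant array 1 was the second highest of the 6. The difference was -0.28 (interval -0.76 to 0.21, limma adjusted p = 0.52). It was -0.49 without mutant replicate 1, where the limma adjusted p was 0.0783.

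The MuvB module is made of LIN-9, LIN-37, LIN-52, LIN-53 and LIN-54. LIN-54 binds DNA directly through its cysteine-rich domains, and its transcript had the second largest difference of the members' probe sets. The probe set of lin-54 read 1569.5, 974 and 1033 in the mutant, against 1683, 1504 and 1443 in wild type. Mutant arrays 2 and 3 lay below the wild type range and mutant array 1 inside it. The difference was -0.40 (SE 0.19, interval -0.85 to 0.04, limma adjusted p = 0.303). Without mutant replicate 1 the transcript fell by 0.62 on the log2 scale, or 1.54-fold (SE 0.10, limma adjusted p = 0.019).

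LIN-37 is a MuvB subunit that repression by DREAM needs in human and mouse cells. Its first probe set had 667, 506 and 504 in the mutant, against 718, 665 and 647 in wild type. Its second had 719, 489 and 564 in the mutant, against 729, 705 and 735 in wild type. The wild type arrays of this second probe set were close together (723 ± 15.4, SD, n = 3), while the mutant arrays were spread out (591 ± 117, SD, n = 3), with array 1 among the wild type values. The differences of lin-37 were -0.29 and -0.31 (limma adjusted p = 0.294 and 0.303), and without mutant replicate 1 both probe sets fell, by 0.42 and 0.46 on the log2 scale (limma adjusted p = 0.0401 and 0.0388).

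LIN-53 is a WD-repeat protein that binds histones and is shared with other chromatin complexes such as NuRD. The first probe set of lin-53 read 926, 735 and 677 in the mutant, against 1055, 936 and 837 in wild type. The second read 3089, 1989 and 2026 in the mutant, against 2987, 2768 and 2516 in wild type. Mutant array 1 was the highest of all 6 on the second probe set and within the wild type range on the first. The differences were -0.28 (interval -0.63 to 0.07) and -0.25 (interval -0.68 to 0.19), and without mutant replicate 1 they were -0.41 (limma adjusted p = 0.0926) and -0.45 (limma adjusted p = 0.0467), so that only the second passed. The gene rba-1, which lies next to lin-53 and encodes a closely related protein, had 2441, 1803 and 1888 in the mutant, against 2273, 2222 and 2152 in wild type. Its difference was -0.13 (SE 0.13, limma adjusted p = 0.641).

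LIN-9 is a core subunit of MuvB, and its human relative holds the module together. Its 3 probe sets had differences of -0.04, -0.19 and -0.15 on the log2 scale. The brightest read 836, 638 and 602 in the mutant, against 739.5, 834 and 771 in wild type. Mutant array 1 was the highest of the 6 on this probe set and mutant arrays 2 and 3 the lowest. No lin-9 probe set passed without mutant replicate 1, where the differences were -0.12, -0.33 and -0.26 and the lowest limma adjusted p was 0.0861.

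The remaining transcripts, lin-52 and lin-13, did not follow the arrays in the same way. LIN-52 is a small MuvB subunit through which the module is joined to the pocket protein. The first probe set of lin-52 had 603, 483 and 589.8 in the mutant, against 462, 643 and 706 in wild type, and the second had 958, 901 and 1005 in the mutant, against 779, 1031 and 1143 in wild type. The lowest and the highest array of the 6 were wild type arrays 1 and 3 on both, so the mutant lay inside the spread of wild type. The differences were -0.10 (interval -0.52 to 0.33) and -0.03 (interval -0.38 to 0.33), and their intervals leave room for changes of up to 1.43-fold downwards and 1.26-fold upwards.

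LIN-13 is a large zinc finger protein of the synMuv B class. The first probe set of lin-13 had 719.9, 719 and 756 in the mutant, against 833, 842 and 636 in wild type, and the second had 1058, 966 and 1024 in the mutant, against 1067, 1218 and 801 in wild type. The mutant arrays were close to each other and lay between wild type array 3, the lowest, and wild type array 2, the highest. The differences were -0.06 (interval -0.36 to 0.24) and 0.00 (interval -0.37 to 0.38). The second probe set was the 1 of the 17 without a negative difference, and its sign changed under 5 alternatives. Whether lin-52 and lin-13 differ from the other members in their response was not tested.

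**Figure D2:**
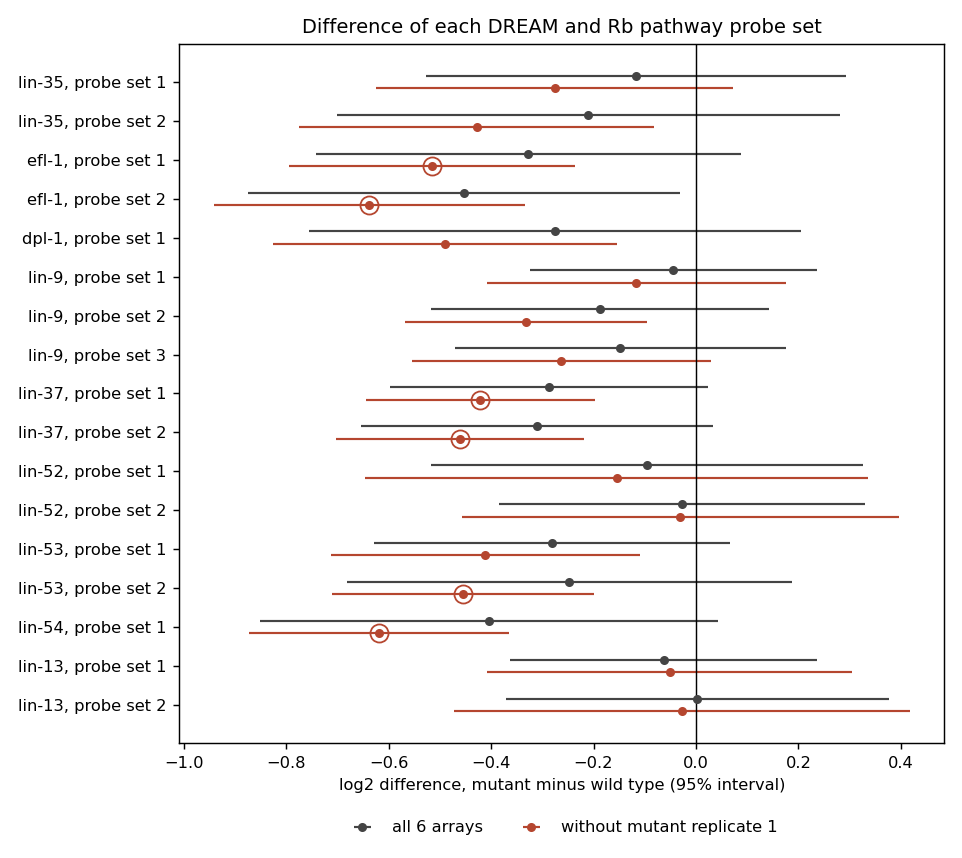
Log2 difference, mutant minus wild type, with its 95% interval for each of the 17 probe sets, over all 6 arrays (grey, upper) and without mutant replicate 1 (red, lower). Rings mark an adjusted p under 0.05; none is ringed over all 6 arrays and 6 are without mutant replicate 1, at efl-1, lin-37, lin-53 and lin-54.

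Other genes of the pathway were read from lists of textbook members. The first list held further synMuv B and synMuv C genes and chromatin genes that act with them, of which 21 of 22 genes were measured by 37 probe sets. None passed (limma), none had an unadjusted p under 0.05 (19.4% of all probe sets did), and the median difference was -0.13. The largest differences were -0.31 for a probe set of hpl-2, a heterochromatin protein gene, and -0.29 for one of hda-1, a histone deacetylase gene. None passed without mutant replicate 1, where 36 of 37 differences were negative, as were 59.6% of all. Of the synMuv A genes, which act in parallel to synMuv B, all 4 were measured by 5 probe sets and none passed, with none at an unadjusted p under 0.05. Their median difference was -0.18, with -0.43 for lin-8 and -0.30 for lin-56. The genes whose loss suppresses synMuv phenotypes, such as histone methyltransferase genes, numbered 8 with 13 probe sets. None passed, 1 had an unadjusted p under 0.05, and the median was -0.08. The largest differences there were -0.39 for mes-3 and -0.20 for mes-4.

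Among genes that act on the pocket protein, cdk-4 had larger differences than any member. CDK-4 and cyclin D (CYD-1) phosphorylate LIN-35 and relieve repression in G1 phase. The first of the 2 probe sets of cdk-4 read 247, 182 and 195 in the mutant, against 333, 302 and 381 in wild type. The second read 661, 555 and 557 in the mutant, against 889, 849.96 and 1149 in wild type. Every mutant array was below every wild type array on both, mutant replicate 1 included, as on 13.3% of all probe sets. The differences were -0.71 (SE 0.15) and -0.70 (SE 0.14). Each had a limma adjusted p of 0.051, just short of the threshold, and passed without mutant replicate 1, at -0.84 and -0.78. The probe sets of cyd-1 gave -0.42 and -0.38 (limma adjusted p = 0.349 and 0.395), with mutant array 1 within the wild type range. Over all 13 genes of G1/S control and other E2F genes, with 21 probe sets, none passed and the median difference was -0.19. Of the 21, 6 had an unadjusted p under 0.05, as did 19.4% of all probe sets. The 2 that passed without mutant replicate 1, where 3.86% of all probe sets fell, were those of cdk-4.

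The list of cell cycle genes of the kind that E2F and DREAM bind held 20 genes with 26 probe sets. None passed over all 6 arrays (limma), 2 had an unadjusted p under 0.05 (19.4% of all probe sets did), and the median difference was -0.18. The largest differences were -0.53 for cdt-1, a replication licensing gene, and -0.43 for rnr-2, a ribonucleotide reductase gene. For cdt-1 the intensities were 565, 320.0 and 336 in the mutant, against 709.8, 544 and 468 in wild type. Mutant array 1 was within the wild type range and the others below it. Without mutant replicate 1 all 26 differences were negative, the median was -0.36, and 4 passed. These were cdt-1, rnr-2, air-2 and polh-1, the last 2 named after their values were seen. In that fit 59.6% of all differences were negative, 3.86% of all probe sets fell, and the median over all was -0.05.

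The last list held genes known to be kept low in somatic cells by synMuv B genes, mostly germ granule genes, with 8 genes and 9 probe sets. 1 passed over all 6 arrays, where 3.48% of all probe sets did, and belonged to pgl-3, whose protein is part of the germline P granules. It had 146, 132 and 135 in the mutant, against 222, 223 and 224 in wild type, with no overlap. It fell by 0.70 on the log2 scale (SE 0.08, limma adjusted p = 0.00933). The difference stayed between -0.74 and -0.67 when 1 array was left out, but the call was lost without mutant replicate 2, mutant replicate 3 or wild type replicate 2 (limma adjusted p = 0.061, 0.0663 and 0.0545). The related pgl-1, named here after its values were seen, went the other way, with 1466, 881 and 909 in the mutant, against 650.4, 678 and 617 in wild type, also without overlap. Groups did not overlap, in either direction, on 24.3% of all probe sets. The difference of pgl-1 was 0.70 (SE 0.20, limma adjusted p = 0.114). It passed without mutant replicate 1 as a rise of 0.47 (limma adjusted p = 0.029), although that array had its highest value. The list median was -0.26.

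**Figure D3:**
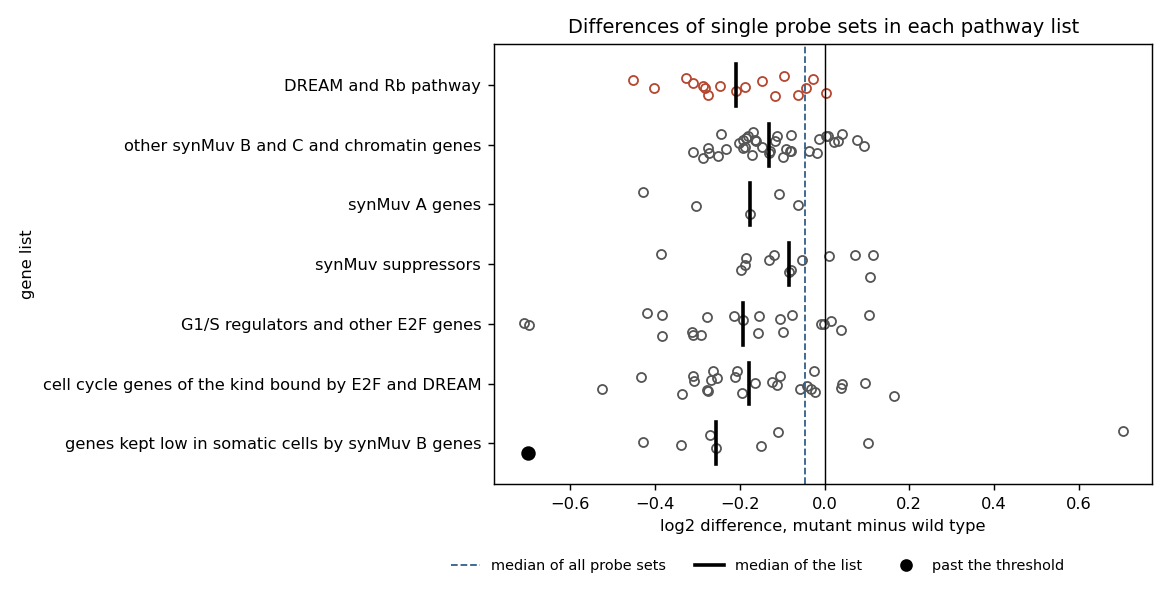
Log2 difference, mutant minus wild type, of each probe set in the DREAM and Rb pathway (red) and in 6 further lists (grey), with the median of each list as a bar and the median of all probe sets as a dashed line. The filled point is pgl-3, the only probe set past the threshold in these lists, and the points at -0.71 and -0.70 of the G1/S list are the probe sets of cdk-4.

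Markers of embryonic stage were read on each array beside the members. As log2 deviations from the 6-array mean, the members had medians of 0.15, -0.27 and -0.20 on mutant arrays 1, 2 and 3, against 0.16, 0.15 and 0.08 on the wild type arrays. Maternal transcripts of oocyte and early embryo (14 of 14 genes, 23 probe sets) had medians of 0.17, -0.27 and -0.24 in the mutant, against 0.24, 0.20 and -0.07 in wild type. The first zygotic transcripts (8 of 9 genes, 8 probe sets) had 0.10, -0.31 and -0.36 in the mutant, against 0.17, 0.07 and 0.08 in wild type. Muscle genes of late embryos (6 of 7 genes, 14 probe sets) ran the other way, with -0.20, 0.30 and 0.30 in the mutant, against -0.04, -0.09 and -0.29 in wild type. Without mutant replicate 1, the fit in which 6 member probe sets fell, 5 of 14 muscle probe sets rose. In it 2 of 23 maternal and 2 of 8 first zygotic probe sets fell. Of all probe sets in that fit, 6.8% rose and 3.86% fell. The part that the mix of stages has in the members' differences was not tested.

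The summed intensities of these markers overlapped between the groups for maternal transcripts (26564 to 36109 in the mutant, against 31024 to 36744 in wild type). Of the maternal genes only cpg-2 (-0.91 and -0.90) and puf-3 (-0.55) had groups that did not overlap, with the mutant lower, as on 13.3% of all probe sets. They were named after their values were seen, and no maternal probe set passed (limma). The sums also overlapped for muscle (20125 to 28976 in the mutant, against 19931 to 23512 in wild type). The muscle sum is carried by bright probe sets of unc-15 and lev-11. Named after their values were seen, the myosin genes myo-2 and myo-1, the troponin gene tnt-2 and 1 probe set of the tropomyosin gene lev-11 had larger differences. These were 1.49, 1.48, 0.94 and 0.68 (limma adjusted p = 0.0989, 0.0857, 0.0634 and 0.149). On each of them every mutant array, replicate 1 included, was above every wild type array. The groups overlapped on the other muscle probe sets, those of myo-3 (0.33), unc-15 (0.18 to 0.21) and the rest of lev-11. Of the 14 muscle differences 2 were negative. Groups did not overlap, in either direction, on 24.3% of all probe sets. The sums did not overlap for the first zygotic transcripts (1223 to 1735 in the mutant, against 1935 to 2182 in wild type). This sum is carried mostly by pes-10, sdz-38 and end-1, whose groups did not overlap. The groups of end-3, med-1, tbx-35, tbx-37 and tbx-38 overlapped, and med-1 and tbx-35 were at the level of the yeast controls. No marker was listed at 0. Sperm markers (7 of 7 genes) summed to 226 to 231 over 7 probe sets in the mutant, against 225 to 238 in wild type, and none of them passed. Their group means, 3.83 to 5.77 on the log2 scale, were near those of the yeast controls (at most 5.42). These sums therefore say little about sperm RNA. Of the adult yolk probe sets, those of vit-2 and vit-5 and the dimmer one of vit-6 were at this level too. Those of vit-1, vit-3 and vit-4 and the brighter one of vit-6 were above 5.42. Adult yolk genes (6 of 6) summed to 494 to 538 over 9 probe sets in the mutant, against 457 to 497 in wild type, with vit-1 the 1 probe set that passed (a rise of 0.58).

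**Figure D4:**
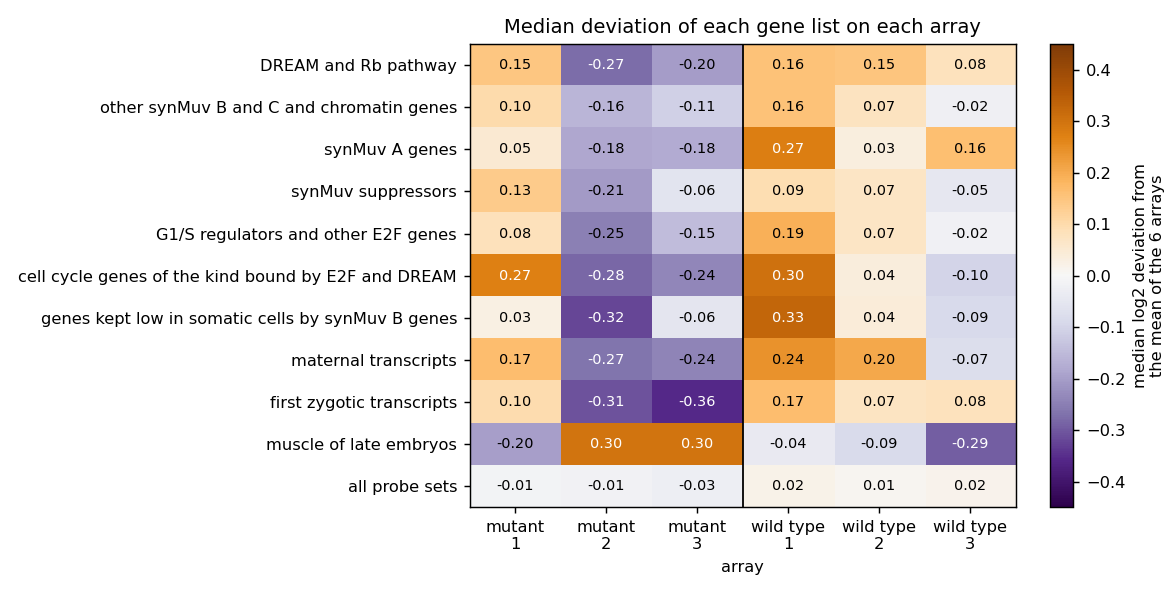
Median log2 deviation from the mean of the 6 arrays for the DREAM and Rb pathway probe sets, 6 pathway lists, 3 lists of stage markers and all probe sets, on each mutant array (left) and wild type array (right). Mutant arrays 2 and 3 are negative in all pathway lists and in the maternal and first zygotic lists and positive for muscle, mutant array 1 has the opposite signs, and the medians of all probe sets stay between -0.03 and 0.02.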

How the data were processed

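The authors deposited normalized intensity values on a linear scale, 1 per probe set and array. Affymetrix Expression Console made them, per the submitters' processing notes; its version and its summarization and background steps are among what is not given in the sources used here. Besides these, the authors deposited log2 values in the series matrix, which equal log2 of the linear table within 5.66e-06. The lowest intensity on an array was between 9.34 and 10.2, and the arrays had similar quartiles, so they share a scale, and a change in total RNA per embryo would not be seen. Some description fields name insect stages and were not used.

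Log2 was taken without a pseudocount. Of 22625 probe sets, 77 controls were left out. By the gene columns 20796 named 1 gene (a symbol with 1 WormBase number counted as 1 gene), 756 several and 996 none, and older symbols were replaced by those of the RefSeq gene table (WBcel235), whose coordinates served only to find neighbouring genes. The 2 groups were compared by limma 3.58.1 (lmFit, then eBayes; R 4.3.3) with no covariate, with 2-sided p-values adjusted over all 22548 probe sets. The steps were tested on simulated data. The number of arrays limits the precision. Members, lists and alternatives were chosen with earlier results of these data known, including that mutant replicate 1 differs from the other mutant arrays. Genes named by rule are all members, rba-1 and, for every pathway list, the 2 largest differences where nothing passed and otherwise at most 4 that did. Outside this rule air-2, polh-1, pgl-1, single marker genes and single neighbouring genes were named after their values were seen. Results were recomputed with arrays left out, array weights, a replicate block, 2 other normalizations, filters on dim probe sets, the series matrix, 1 probe set per gene, a robust fit with intensity trend, and 16 added before log2.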

Additional observations from a re-analysis of the deposited data

How the results depend on the processing

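The number of probe sets past the threshold, 785 over all 6 arrays, was 109 to 2404 when 1 array was left out, 3508 without both arrays numbered 1, 4195 with array weights and 470 without the dimmest 50%. For the DREAM and Rb pathway it was 0, with 0 to 6 when 1 array was left out (6 without mutant replicate 1 and 0 without any other), 7 without both arrays numbered 1 and 7 with array weights, all of them lower in the mutant. In those last fits 6.89% and 8.72% of all probe sets were lower. The members' median difference of -0.21 ranged from -0.41 to -0.14 when 1 array was left out. Array weights gave mutant replicate 1 the lowest weight (0.334, against 1.45 and 3.49 for mutant replicates 2 and 3) and wild type replicate 1 the next lowest (0.49).

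With array weights 3 further synMuv B, synMuv C and chromatin probe sets, 1 synMuv A and 1 suppressor probe set passed. Without both arrays numbered 1 the synMuv A count was also 1. All of these were lower in the mutant, as were 8.72% of all probe sets with array weights and 6.89% without both arrays numbered 1. The G1/S count of 0 was 0 to 2 when 1 array was left out, 5 without both arrays numbered 1, 5 with array weights, 2 after median centring, 2 without the dimmest 25%, 2 without the dimmest 50% and 1 with an intensity trend and robust fit. The cell cycle count was 0 to 4 when 1 array was left out, 4 without both arrays numbered 1 and 5 with array weights. The count of genes kept low in somatic cells was 0 to 2 when 1 array was left out (pgl-3 was lost without mutant replicate 2, mutant replicate 3 or wild type replicate 2), 2 without both arrays numbered 1 and 3 with array weights.

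Of 281 recomputed differences of single member probe sets, 245 kept their sign and their side of the threshold, 20 passed it and 16 changed sign, all with a size of at most 0.17. The second lin-52 probe set was 0.0058 after quantile normalization, the first of lin-13 was 0.0105 without both arrays numbered 1, and the second of lin-13 was -0.0626 after median centring and -0.1030 with array weights. When 1 array was left out, the first probe set of lin-35 ran from -0.2755 to 0.0174, the first of lin-9 from -0.1162 to 0.0471, those of lin-52 from -0.2774 to 0.0282 and from -0.1868 to 0.0895, and those of lin-13 from -0.1951 to 0.0070 and from -0.1669 to 0.1354. The causes were not tested.

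The groups share replicate numbers, but the deviations of same-numbered arrays from their group means correlated at 0.199, 0.0165 and 0.0897 over all probe sets, and mutant replicate 3 correlated best with wild type replicate 2 (0.345), so the numbers were not taken as pairs. With the replicate block 882 probe sets passed and none of the 17 member probe sets did. 6 of these 17 had an unadjusted p under 0.05, as did 20.9% of all probe sets, and their median difference was -0.21.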

Other observations

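The genes that lie next to the members on the chromosome, by the order of the WBcel235 gene table, were measured too, and only rba-1, beside lin-53, is described above. Of 18 neighbours 16 were measured by 20 probe sets. None passed over all 6 arrays (limma, lowest adjusted p = 0.0523), 1 did without mutant replicate 1 (C32F10.4, a rise of 0.62), and 12 of the 20 differences were negative. Of all probe sets, 60.7% had a negative difference over all 6 arrays, and 10.7% passed without mutant replicate 1. The 2 neighbours of lin-35 differed in sign: C32F10.4 had 742, 931 and 793 in the mutant, against 516, 584 and 579.5 in wild type, a difference of 0.55 (SE 0.11, limma adjusted p = 0.0523), and vps-51 had 781, 708 and 779 in the mutant, against 887, 969.97 and 1078 in wild type, a difference of -0.37 (SE 0.10, limma adjusted p = 0.111). In both, every mutant array lay on 1 side of every wild type array, mutant replicate 1 included, as on 24.3% of all probe sets. The probe sets of lin-35, which lies between them, had overlapping groups. Beside lin-52, the probe sets of ZK632.9 gave 0.56 and 0.57 (SE 0.13 and 0.15), with limma adjusted p-values of 0.0643 and 0.0931. These genes were named after their values were seen.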
